A study of Homo sapiens with 5 samples.

Results

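The human miRNAs hsa-miR-126, hsa-miR-130a, hsa-miR-10a and hsa-miR-10b (miR-126 and so on from here), were examined in 5 transformed blood cell lines. They are miRNAs known from hematopoietic progenitors and early megakaryocytes, and they were taken by name from the human miRNA probes of the panel, which gave 4 of 654 probes. None of the 4 has an arm in its probe name, and the panel held no probe for the star form, the other arm, of any of them. The study profiled 100 ng of total RNA of each line with nCounter miRNA probes, each read out by counting single barcoded molecules rather than by amplification. Meg-01 is megakaryoblastic and K562 erythroleukemic, and both are known to derive from chronic myeloid leukemia in blast crisis. Jurkat is T-lymphoblastic, Raji B-lymphoblastic and U937 monocytic. Each line was 1 sample of 1 established culture with no treatment named in the labels, so values could not be checked against replicates and no test between lines was run.

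A miRNA silences mRNAs that pair with its seed, bases 2 to 8 from its 5′ end. miR-126 lies in EGFL7, a gene of endothelial cells, and is known from endothelium, from blood stem cells, where it holds back cell cycle entry, and from platelets. miR-10a and miR-10b lie in the HOX gene clusters, whose transcription factors set progenitor identity, and they are known to target HOX mRNAs. miR-130a is known from progenitors, and its level falls as they mature into megakaryocytes. In the RefSeq annotation of GRCh38.p14, MIR126 overlapped EGFL7 on chromosome 9, MIR10A lay between HOXB4 and HOXB5 and overlapped HOXB3 on chromosome 17, MIR10B lay between HOXD8 and HOXD4 on chromosome 2, and MIR130A overlapped MIR130AHG on chromosome 11.

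The mature sequences below are those of RefSeq with the seed in capitals. They are shown because the seed decides which relatives of the 4 miRNAs can act on the same mRNAs. The arms follow the names used in the study for miR-126 and the main arm for the others, since the probes themselves name no arm. miR-126-3p was at chr9:136670653-136670674 on the plus strand and miR-10a-5p at chr17:48579904-48579926 on the minus strand, both in GRCh38.p14. The table gave no entry for miR-130a-3p or miR-10b-5p. The last 4 sequences belong to the relatives of miR-130a that share 1 seed.
miR-126-3p: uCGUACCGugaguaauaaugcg
miR-10a-5p: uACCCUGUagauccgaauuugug
miR-130b-3p: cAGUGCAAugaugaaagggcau
miR-301a-3p: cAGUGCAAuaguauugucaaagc
miR-301b-3p: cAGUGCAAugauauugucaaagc
miR-454-3p: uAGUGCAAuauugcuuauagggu

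The human probes together gave 66892 counts in Raji, the fewest, and 130048 in Jurkat, the most, a 1.94-fold range. Lines were scaled by the geometric mean of the counts for the 100 most abundant miRNAs, 1 set for all lines, with factors of 0.741 in Meg-01 to 1.58 in Raji, and are called normalized counts. A probe was called detected above a threshold, the mean plus 2 SD of the 8 negative control probes of its line, 34.6 to 45.9 raw counts, and between 111 and 229 of the 654 probes were. The 95% intervals are exact and cover counting error only. The miRNA markers of blood cells were checked first. miR-142-3p, present throughout blood lineages, had at least 7436 raw counts in every line. The erythroid miR-144 passed the threshold in Meg-01 (981 raw counts) and K562 (216) and in no other line, as did miR-451 (129 and 59), so in raw counts both were higher in the megakaryoblastic than in the erythroleukemic line. The lymphoid miR-150 was detected only in Jurkat. The myeloid miR-223 passed the threshold in every line and did not follow lineage. It had 3269 raw counts in Meg-01, 2682 in U937, 1684 in K562, 732 in Jurkat and 62 in Raji. Of the 5 epithelial and liver probes, none exceeded 48 raw counts, but miR-200b in Jurkat, Raji and K562 and miR-200c and miR-122 in Jurkat passed the threshold with 36 to 48, the range in which miR-10b was detected.

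miR-126 was high in 2 lines and low in 3, miR-10a was highest in K562, miR-10b stayed at the edge of the background, and miR-130a was below the background in every line. Of the 4 miRNAs, 3 were detected in Meg-01 and Jurkat, 2 in U937 and K562, and 1 in Raji. For comparison, the detected share of all 654 human probes was 35.0% in Jurkat, 28.3% in U937, 27.5% in K562, 27.2% in Meg-01 and 17.0% in Raji.

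**Figure D1:**
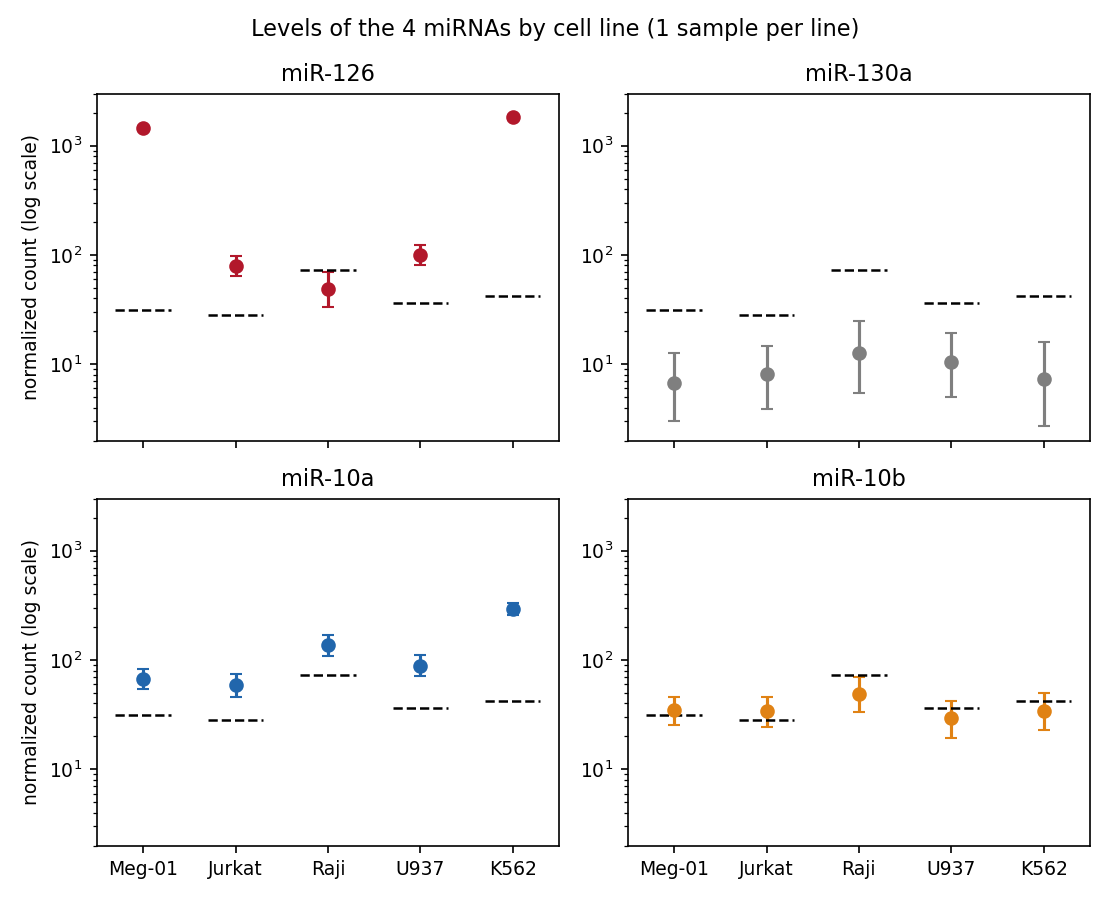
Normalized count (log scale) of each of the 4 miRNAs in the 5 cell lines, 1 sample per line. Points are values, bars are exact 95% Poisson intervals of the count and dashed lines are the background threshold of each line. miR-126 reaches 1449 in Meg-01 and 1812 in K562, miR-10a reaches 292 in K562, the intervals of miR-10b lie at or below the thresholds or cover them, and all points of miR-130a lie below.

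The raw count of miR-126 was 1954 in Meg-01 (95% interval 1868 to 2043), 1482 in K562 (1407 to 1559), 99 in Jurkat (80.5 to 121), 96 in U937 (77.8 to 117) and 31 in Raji (21.1 to 44.0). Meg-01 and K562 were high, Jurkat and U937 low but above their thresholds, and the interval of Raji lay below its threshold of 45.9 raw counts. In Meg-01 it made up 1.78% of all human miRNA counts and ranked 9 of 178 detected probes, and in K562 1.41% and rank 12 of 180. In U937 it ranked 67 of 185 and made up 0.102%, and in Jurkat it ranked 80 of 229 and made up 0.0761%.

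After scaling, miR-126 was 1812 normalized counts in K562, 1449 in Meg-01, 100 in U937, 79.7 in Jurkat and 48.9 in Raji. Meg-01 exceeded Jurkat 18.2-fold (14.8 to 22.5), U937 14.5-fold (11.8 to 17.9) and Raji 29.6-fold (20.8 to 43.7). In K562 the same ratios were 22.7 (18.5 to 28.2), 18.1 (14.7 to 22.5) and 37.0 (26.0 to 54.7). Since Raji was not above its threshold, the ratios to Raji compare a signal with a background count. With the threshold subtracted, miR-126 was 27.5-fold higher in Meg-01 than in Jurkat and 22.2-fold higher than in U937, and it was 34.4-fold and 27.8-fold higher in K562. Against Raji entered at its threshold, it was at least 19.6-fold higher in Meg-01 and at least 24.4-fold higher in K562.

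The order within the high and within the low lines was less clear. K562 exceeded Meg-01 1.25-fold in normalized counts (1.17 to 1.34), but in raw counts Meg-01 was the higher, and the direction turned under 4 of 8 other settings. U937 was 1.26-fold Jurkat (0.939 to 1.68), an interval that includes 1. Jurkat was above Raji, but Raji was not above its threshold, so the size of the difference is not settled. The log2 ratio was 0.70 in normalized counts and 3.39 in the deposited signals.

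The raw count of miR-10a was 239 in K562 (95% interval 210 to 271), 91 in Meg-01 (73.3 to 112), 86 in Raji (68.8 to 106), 85 in U937 (67.9 to 105) and 73 in Jurkat (57.2 to 91.8). K562 stood above the other 4 lines, whose raw counts lay within a 1.25-fold range and whose intervals overlapped. All 5 values were above the thresholds and above each of the 46 probes for viruses other than Epstein-Barr virus, whose highest counts were 47 to 68. In Jurkat the interval of miR-10a reached below the highest of these virus probes, 62. It ranked 36 of 180 detected probes in K562 and between 55 and 101 in the other lines.

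In normalized counts miR-10a was 292 in K562, 136 in Raji, 88.7 in U937, 67.5 in Meg-01 and 58.8 in Jurkat. K562 was 4.33-fold Meg-01 (3.39 to 5.58), 4.97-fold Jurkat (3.81 to 6.55), 3.30-fold U937 (2.56 to 4.27) and 2.15-fold Raji (1.68 to 2.79). In raw counts these ratios were 2.63, 3.27, 2.81 and 2.78, so the excess of K562 was present before any scaling. Raji, with a scaling factor of 1.58, was second in normalized counts and below Meg-01 in raw counts. Its miR-10a was 2.01-fold Meg-01 (1.48 to 2.73) in normalized counts and 0.945-fold in raw counts, and the order of these lines is not settled. U937 was 1.31-fold Meg-01 (0.966 to 1.79) and Meg-01 was 1.15-fold Jurkat (0.834 to 1.58), and both intervals include 1. Thus miR-10a was not high in both lines that were high in miR-126. In Meg-01, miR-126 was 18.2-fold Jurkat and 14.5-fold U937, the low lines in which it was detected, and miR-10a was 1.15-fold and 0.761-fold.

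The raw count of miR-10b was 47 in Meg-01 (95% interval 34.5 to 62.5), 42 in Jurkat (30.3 to 56.8), 31 in Raji (21.1 to 44.0), 28 in U937 (18.6 to 40.5) and 28 in K562 (18.6 to 40.5). Meg-01 and Jurkat were above their thresholds of 42.1 and 35.0 raw counts, but both intervals covered the threshold. In both lines miR-10b, the HOXD relative of miR-10a, was above all 8 negative controls, and above 44 and 42 of the 46 virus probes. It was thus detected in Meg-01 and Jurkat within counting error of the threshold, and not detected in Raji, U937 and K562. Its normalized counts ran from 29.2 in U937 to 48.9 in Raji, and every ratio between a line in which it was detected and another had an interval that included 1. The deposited signals are background-subtracted. In them the log2 ratio of miR-10b was 2.34 in Meg-01 over K562, 1.90 in Meg-01 over U937 and 1.85 in Jurkat over U937. In the same order it was 1.06, 1.41 and 1.06 with the mean of the negative controls subtracted. Without normalization it was 0.75, 0.75 and 0.58. These ratios thus depend on the processing. In K562, where miR-10a was highest, miR-10b was below its threshold of 34.6 raw counts.

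The raw count of miR-130a was 10 in Jurkat (95% interval 4.80 to 18.4), 10 in U937 (4.80 to 18.4), 9 in Meg-01 (4.12 to 17.1), 8 in Raji (3.45 to 15.8) and 6 in K562 (2.20 to 13.1). All 5 intervals lay below the thresholds and all overlapped. The counts were above none of the 8 negative control probes in Jurkat, Raji, U937 and K562, and above 1 of 8 in Meg-01. Of the 654 human probes, 1 had a lower maximum over the 5 lines. miR-130a was thus not detectable in any line, including Meg-01, and no ratio between lines is given. The labels of the 5 samples name no RNA known to contain it, so how well this probe counts its target was not tested.

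**Figure D2:**
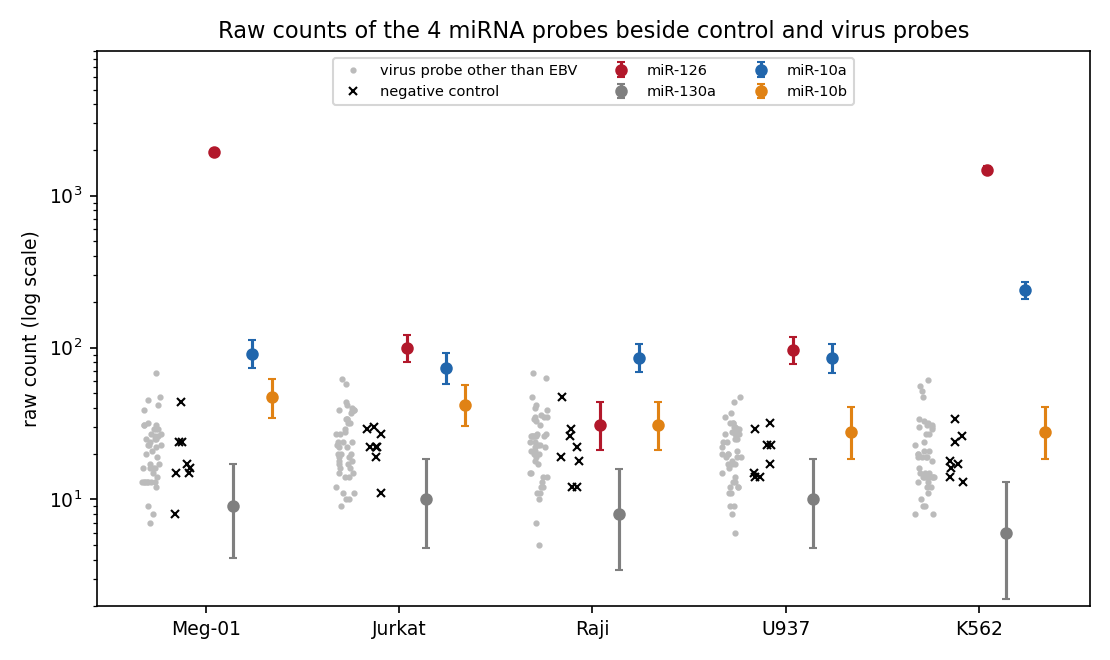
Raw counts (log scale) of the 4 miRNA probes in each line, with exact 95% Poisson intervals, beside the 8 negative control probes (crosses) and the 46 probes for viruses other than Epstein-Barr virus (grey dots). miR-130a, with 6 to 10 counts, sits at the bottom of the controls in every line, miR-10b with 28 to 47 among the higher of them, and miR-10a with 73 to 239 above them.

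Ratios between all pairs of lines were then set against those of the other human probes. A miRNA was counted where its normalized count was over 2-fold higher in a line than in another and it was detected in at least 1 of them. Of the 4 miRNAs, only miR-126 was counted in Meg-01 over Jurkat, over Raji and over U937, where 17.4%, 17.7% and 16.5% of all tested probes were. miR-126 and miR-10a were counted in K562 over Jurkat, over Raji and over U937, where 18.3%, 18.8% and 16.2% of tested probes were. miR-10a alone was counted in K562 over Meg-01 (25.8% of tested probes), in Raji over Meg-01 (28.1%) and in Raji over Jurkat (19.7%), and miR-126 alone in U937 over Raji (9.33%). The counts in Raji over Meg-01 and over Jurkat depended on the setting. The log2 ratio of miR-10a in Raji over Meg-01 was 1.01 and turned to -0.08 in raw counts, and that in Raji over Jurkat was 1.21 and came to 0.24. The log2 ratio of miR-126 in U937 over Raji was 1.03, close to the limit, with Raji at background. None of the 4 was counted in the other 10 comparisons. The share of all tested probes there was 16.0% in Meg-01 over K562, 14.3%, 9.83%, 7.31% and 10.5% in Jurkat over Meg-01, Raji, U937 and K562, 14.5% and 17.2% in Raji over U937 and K562, and 13.9%, 7.69% and 10.5% in U937 over Meg-01, Jurkat and K562. With 2 or 3 of the 4 testable in each comparison, these counts are small. By size of the ratio, miR-126 ranked 2 of 257 in K562 over Jurkat and 2 of 229 in K562 over U937, and ranked 4 of 265 and 5 of 231 in Meg-01 over Jurkat and over U937. miR-10a ranked 9 of 225 in K562 over Meg-01, 13 of 257 over Jurkat, 19 of 229 over U937 and 32 of 192 over Raji.

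The median log2 ratio of all tested probes was not 0. It was -0.28 in Meg-01 over Jurkat, -0.53 in Meg-01 over Raji, -0.30 in Meg-01 over U937 and -0.52 in Meg-01 over K562, and 0.29, -0.15 and 0.26 in K562 over Jurkat, Raji and U937. Taken relative to this median, a quantity that no scaling changes, the log2 ratio of miR-126 was 4.46, 5.42 and 4.15 in Meg-01 over Jurkat, Raji and U937, and 4.22, 5.36 and 3.92 in K562. In Meg-01 over K562 it was 0.20, where the log2 ratio of normalized counts was -0.32. The same relative log2 ratio of miR-10a in K562 was 2.02 over Jurkat, 1.26 over Raji, 1.46 over U937 and 1.60 over Meg-01. In Raji over Meg-01 it was 0.47.

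**Figure D3:**
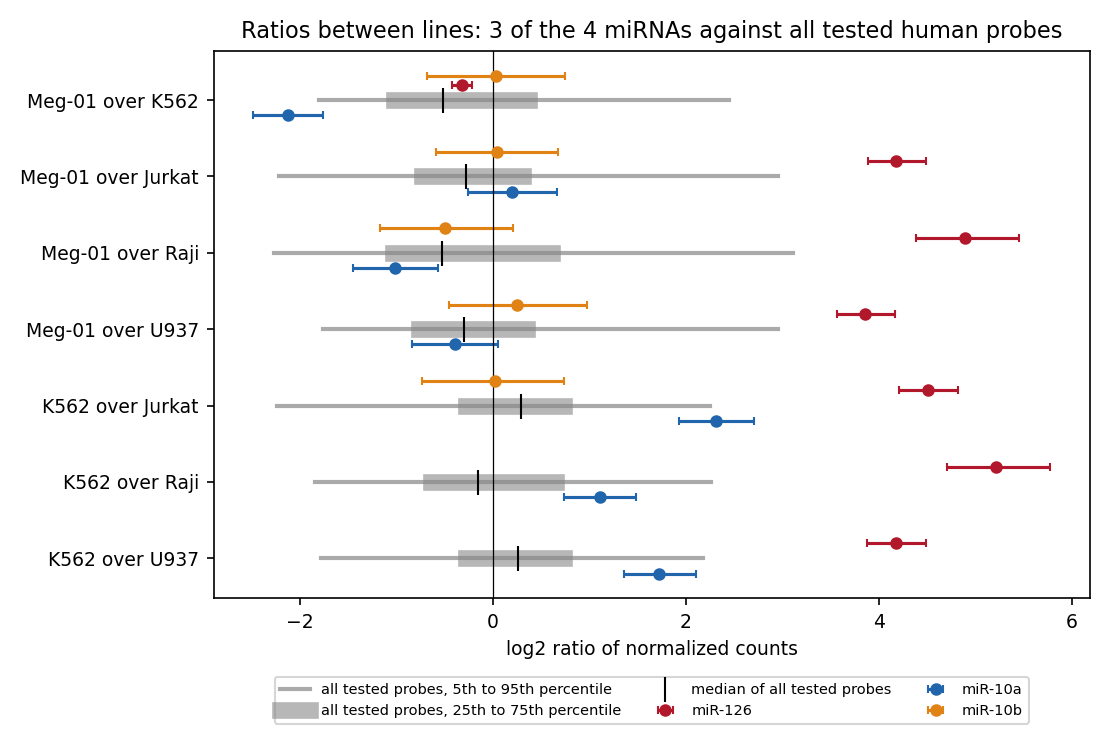
Log2 ratio of normalized counts for 7 pairs of lines. Points are miR-126, miR-10a and miR-10b (where tested) with 95% conditional binomial intervals, thin and thick grey bars span the 5th to 95th and 25th to 75th percentiles of all tested human probes, and the tick is their median. miR-126 lies between 3.85 and 5.21 in the 6 pairs of a high and a low line and at -0.32 in Meg-01 over K562, where miR-10a lies at -2.12.

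Relatives of miR-130a with the same seed were measured by 4 probes. miR-130b was detected in every line, with 391 raw counts in K562, 299 in Jurkat, 104 in U937, 83 in Meg-01 and 77 in Raji. It was therefore highest in K562 and Jurkat, and in normalized counts K562 was 7.77-fold Meg-01 (6.12 to 9.97). miR-301a had 307 raw counts in Jurkat, 141 in Meg-01, 89 in U937, 73 in K562 and 45 in Raji, the last below its threshold. Jurkat was 2.37-fold Meg-01 (1.93 to 2.91) in normalized counts of miR-301a. miR-454 had 54 raw counts in Jurkat, 43 in Meg-01 and 39 in K562, above the threshold, and 32 in Raji and 24 in U937, below it. Its intervals in Meg-01, K562 and U937 covered the threshold. miR-301b had 13 to 27 raw counts, below the threshold in all 5 lines. While miR-130a was detected in no line, miR-130b of the same seed was thus detected in all 5, miR-301a in 4 and miR-454 in 3. Of these 4 probes, 3 were detected in Meg-01, Jurkat and K562, 2 in U937 and 1 in Raji.

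Of the other miRNAs of the HOX clusters, miR-196b differed from miR-10a in the line where it was highest. miR-196b had 388 raw counts in U937 and 160 in Meg-01, against 19 to 22 in the other lines, all below the threshold. In normalized counts U937 was 3.41-fold Meg-01 (2.83 to 4.13). miR-196a had 161 raw counts in Jurkat, 132 in U937, 76 in K562, 45 in Meg-01 and 40 in Raji. The count in Raji was below its threshold of 45.9. That in Meg-01 was above its threshold of 42.1, but its interval covered it. miR-196a and miR-196b differ at 1 of 22 bases in RefSeq, so how far each probe counts the other was not tested. miR-615-5p had 52 to 87 raw counts in all lines, and miR-615-3p 10 to 26, below every threshold. K562, where miR-10a was highest, had no count of miR-196b above background.

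**Figure D4:**
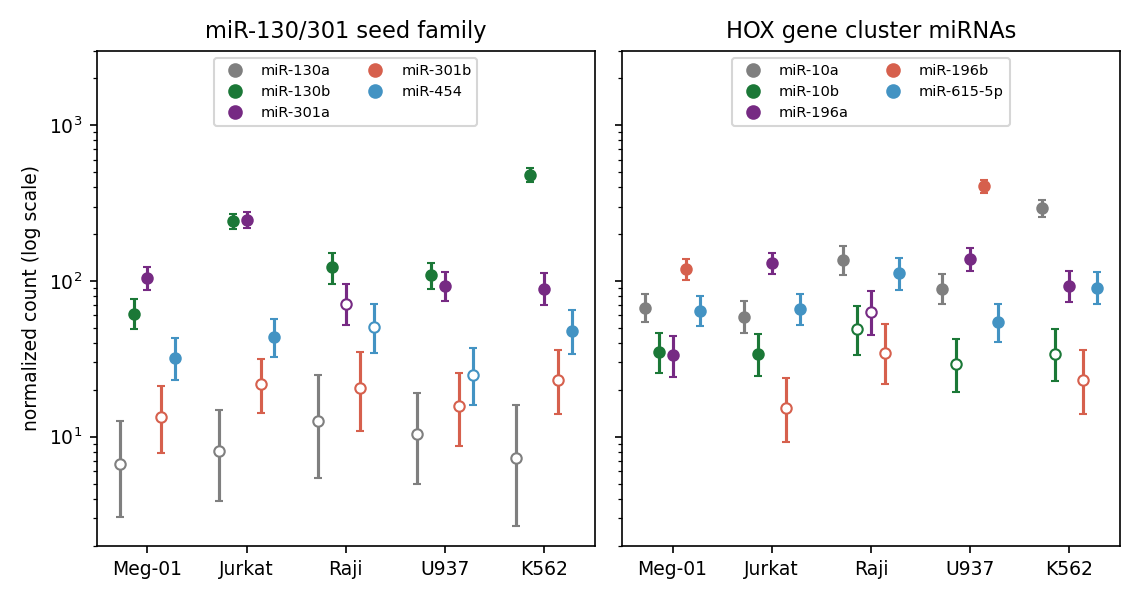
Normalized counts (log scale) of miR-130a with its seed relatives (left) and of miR-10a and miR-10b with 3 other miRNAs of the HOX clusters (right), with exact 95% Poisson intervals, filled where the probe was detected and open where it was not. miR-130b reaches 478 in K562 and miR-301a 247 in Jurkat while miR-130a stays at or below 12.6, and miR-196b is highest in U937 at 405 where miR-10a is highest in K562 at 292.

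Among 11 other miRNAs known from stem and progenitor cells, Meg-01 had 10 above its threshold, Jurkat 9, Raji and U937 8 each and K562 6. The detected share of all human probes was 27.2%, 35.0%, 17.0%, 28.3% and 27.5% in that order. Some of these calls had intervals that covered the threshold. They were miR-155, miR-125a-5p and miR-125b in Jurkat (36 to 41 raw counts) and miR-99a and miR-222 in Raji (48 and 46). The others were miR-125b in K562 (36) and miR-146a in Meg-01 (46). Over 2-fold higher in Meg-01 than in K562 were 5 of the 10 tested (16.0% of all tested probes), with a median log2 ratio of 0.83 against -0.52 over all tested probes, and 0 were over 2-fold lower (25.8%). Against Jurkat 6 of 10 were higher in Meg-01 (17.4%) and 0 lower (14.3%), with a median of 1.28 against -0.28. Against Raji 6 were higher (17.7%) and 3 lower (28.1%), with a median of 1.52 against -0.53. Against U937 4 were higher (16.5%) and 4 lower (13.9%), with a median of 0.25 against -0.30. Such an excess was not particular to Meg-01. In Raji over K562, 7 of 10 were higher (17.2%) and 3 lower (18.8%), with a median of 1.12 against 0.15. In U937 over K562, 6 of 9 were higher (10.5%) and 1 lower (16.2%), with a median of 1.53 against -0.26. In U937 over Jurkat, 5 of 9 were higher (7.69%) and 1 lower (7.31%), with a median of 1.06 against 0.05. miR-99a, with 437 raw counts in Meg-01 and 30 to 48 in the other lines, and miR-125b, with 560 and 34 to 64, were high in Meg-01 alone. miR-126 was also high in K562, as was miR-125a-5p of the same list, with 500 raw counts in Meg-01 and 350 in K562.

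The 5 probes whose pattern over the 5 lines was most like that of miR-126, by Pearson r of log2 normalized counts among 200 probes detected in at least 2 lines, were miR-125a-5p (r = 0.960), miR-144 (0.909), miR-1274a (0.889), miR-1274b (0.879) and miR-451 (0.878). All 5 were highest in Meg-01 and K562. These values rest on 5 points with shared scaling and on the split of 2 high and 3 low lines, and only 2 of the 5 were among the closest by Spearman's rho or in unscaled counts. For miR-10a they were miR-1977 (0.955), miR-214 (0.950), miR-1974 (0.925), miR-185 (0.917) and miR-19b (0.915). All 5 were highest in K562, and 8 of the 200 probes had r over 0.9 with miR-10a. By Spearman's rho 1 of the 5 was among the closest, and 2 were when probes detected in at least 1 line were compared. For miR-10b the closest probe was miR-2053 (0.995), at 24 to 44 raw counts, and miR-30a, miR-892b, miR-30e and miR-302f followed. miR-10b itself was near or below its threshold in every line, and 0 of the 5 were among its closest in unscaled counts.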

How the data were processed

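The values used were raw counts of 753 probes, which the authors deposited as instrument output with no normalization. The authors also deposited background-subtracted signal, used here only as an alternative. Kit version per sample and probe sequences are not given in the sources used here. Groups came from the cell line labels. As in the study, the scaling used a geometric mean over the 100 most abundant miRNAs. Here these were 1 set for all lines, chosen by mean over the lines, a detail not given in the sources used here. A probe was detected where it exceeded the 8 negative controls by 2 SD over their mean. Ratios were formed before background subtraction. Those after it are given beside them, a line at or below its threshold being entered there as a bound. All 95% intervals are exact, from the Poisson distribution for a count and the conditional binomial (Clopper-Pearson) for a ratio. They leave out variation between cultures and RNA preparations. With 1 sample per line no test was run.

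The depth was 66892 to 130048 human counts per line, at which a count of 28 has an interval of 18.6 to 40.5 and a count of 1482 one of 1407 to 1559. The 4 miRNAs and all lists were chosen with earlier results of these data known. Named miRNAs were the 4, the other arm of their hairpins, the miR-130 seed family, the HOX cluster miRNAs, 11 stem and progenitor miRNAs, blood and tissue markers, and, for each of the 4 detected in at least 2 lines, the 5 probes most like it. Sequences were matched by name in a RefSeq table of GRCh38.p14, which held 2 of the 4 miRNAs and all 8 seed family and HOX cluster relatives. Alternatives were 5 other scalings, the deposited signals, 2 background subtractions, 4 other thresholds, no filter, a fold limit of 4 and 3 other measures of likeness. The calculations were tested on simulated counts. Python 3.11.15, pandas 2.3.3, scipy 1.17.1 and matplotlib 3.10.9 were used.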

Additional observations from a re-analysis of the deposited data

How the results depend on the processing

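No paired analysis was possible because each line has 1 sample. Under all 8 alternatives for a ratio, miR-126 stayed higher in Meg-01 and in K562 than in Jurkat, Raji and U937, and miR-10a stayed higher in K562 than in each other line. The log2 ratio of miR-126 in Meg-01 over Jurkat was 4.18, and 3.83 scaled to housekeeping mRNAs, 4.55 scaled to total human counts, 4.55 in the deposited signals, 4.55 with the mean of the negative controls subtracted and 4.78 with the threshold subtracted. In Meg-01 over K562 it was -0.32, and 0.40 without normalization, -0.19 with the 100 highest of each line, 0.27 with positive controls, -0.80 with housekeeping mRNAs, 0.34 with total counts and 0.41 in the deposited signals. The log2 ratio of miR-10a in K562 over Meg-01 was 2.12, and 1.39 without normalization, 1.52 with positive controls, 2.59 with housekeeping mRNAs, 1.45 with total counts, 1.61 in the deposited signals and 2.79 with the threshold subtracted. In K562 over Jurkat it was 2.31, and 1.71 without normalization, 1.74 with positive controls, 2.72 with the mean of the negative controls subtracted and 3.03 with the threshold subtracted. The ratio of miR-10a in Raji over Meg-01 turned from 1.01 to -0.08 without normalization and to -0.17 in the deposited signals. In Raji over U937 it turned from 0.61 to -0.35 with positive controls, -0.42 with housekeeping mRNAs and -0.03 in the deposited signals. For miR-126 in U937 over Raji, 1.03, the threshold-subtracted value of -0.18 is only a lower bound, since Raji was entered at its threshold, and no measured value turned.

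In Raji 3 of the 4 miRNAs, in place of 1, were detected above the mean of the negative controls or a raw minimum of 20 or 30, and in U937 and K562 3 in place of 2 above that mean or the minimum of 20. Of the 4, the number over 2-fold higher in Meg-01 than in Raji became 2 in the deposited signals. In the deposited signals and with the mean of the negative controls subtracted, it became 2 in Meg-01 over U937, 1 in Meg-01 over K562 and 1 in Jurkat over U937, each time through miR-10b. In Jurkat over Raji it became 1 without normalization, with positive controls, with housekeeping mRNAs and with the mean of the negative controls subtracted, and 2 in the deposited signals, where Jurkat over K562 became 1. In Raji over Meg-01 it became 0 under all alternatives but no filter. In Raji over Jurkat it became 0 without normalization, with positive controls, with housekeeping mRNAs, in the deposited signals and at a fold limit of 4, and in U937 over Raji 0 with the threshold subtracted and at a fold limit of 4. In K562 over Raji it became 1 with total human counts and at a fold limit of 4, and in K562 over U937 1 at that limit. These causes were not tested. Over the 23 other log2 ratios and their alternatives, 104 values stayed within the counting interval of the ratio and the rest did not. The ratios of miR-10b changed sign most often, in 6 of 8 alternatives for K562 over Jurkat and in 5 of 8 for Raji over Jurkat and Raji over Meg-01. Counts of miR-10b and miR-130a, 6 to 47, lay near or below the threshold, so their differences between lines were not detectable at this depth.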
